A study of Mus musculus with 32 samples.

Results

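Heart muscle transcripts in the mouse lung were followed through 10 genes: Myh6, Actc1, Myl7, Myl4, Tnnt2, Tnni3, Nppa, Sln, Ryr2 and Tbx5. They were the rows of the gene table whose Ensembl identifiers map to these symbols, 10 of 41687 rows, and each symbol had 1 row. The samples were lungs of 12 adult mice aged 8 to 18 weeks, all labelled female, with 6 wild-type C57b/6 mice (WT) and 6 Bmal1 knock-outs (KO). The allele, the cell type in which it acts and the time of day of dissection were not given in the sources used here. RiboZero libraries had ribosomal RNA pulled down, PolyA libraries were selected for polyadenylated RNA, and NoSelect libraries had neither step. RiboZero and PolyA libraries came from all 12 mice (n = 6 WT and 6 KO), and NoSelect libraries from mice 3 to 6 of both genotypes (n = 4 WT and 4 KO), in all 32 libraries. A mouse keeps its number across preparations, while a WT and a KO mouse with 1 number are separate animals.

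Mouse pulmonary veins carry a sleeve of cardiomyocytes that continues from the left atrium into the lung. These cells contract through the sarcomere, in which myosin thick filaments pull on actin thin filaments and troponin makes the pull depend on calcium released from the sarcoplasmic reticulum. The atrial form of this machinery uses its own myosin light chains, and it is accompanied by the calcium pump inhibitor sarcolipin and by the hormone precursor encoded by Nppa. Bmal1, whose gene has the symbol Arntl, is a clock transcription factor that binds E-box sequences with its partner Clock.

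Upstream sequences of the members were read from RefSeq (GRCm38.p6), where 8 of the 10 members were found, Sln and Tbx5 not among them. The 250 bases before the start site are shown for Myh6, Myl7 and Tnnt2, which varied together between mice, and for Actc1, which was nearer the other mice in KO 3. Capitals mark matches to the motifs named after the sequences. The windows are chr14:54966608-54966857 on the minus strand for Myh6, chr11:5898783-5899032 on the minus strand for Myl7, chr1:135836084-135836333 on the plus strand for Tnnt2 and chr2:114052876-114053125 on the minus strand for Actc1.
Myh6: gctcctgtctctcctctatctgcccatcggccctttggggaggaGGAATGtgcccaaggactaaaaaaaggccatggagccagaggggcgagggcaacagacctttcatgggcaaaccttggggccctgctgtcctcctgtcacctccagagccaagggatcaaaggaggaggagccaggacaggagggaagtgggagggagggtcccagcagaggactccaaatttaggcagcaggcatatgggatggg
Myl7: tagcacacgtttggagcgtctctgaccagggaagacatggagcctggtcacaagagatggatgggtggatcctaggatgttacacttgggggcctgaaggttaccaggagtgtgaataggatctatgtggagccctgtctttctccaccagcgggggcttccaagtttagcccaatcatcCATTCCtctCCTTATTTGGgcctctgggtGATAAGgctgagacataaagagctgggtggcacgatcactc
Tnnt2: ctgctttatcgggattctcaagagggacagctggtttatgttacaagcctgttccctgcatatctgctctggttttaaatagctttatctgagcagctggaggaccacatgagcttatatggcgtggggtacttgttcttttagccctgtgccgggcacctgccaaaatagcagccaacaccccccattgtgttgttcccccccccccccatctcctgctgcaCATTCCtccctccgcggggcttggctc
Actc1: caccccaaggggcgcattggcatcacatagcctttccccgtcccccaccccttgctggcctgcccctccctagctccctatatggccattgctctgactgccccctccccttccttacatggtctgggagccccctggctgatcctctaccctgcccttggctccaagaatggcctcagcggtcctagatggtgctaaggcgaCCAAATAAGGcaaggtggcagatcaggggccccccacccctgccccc

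The search covered 7 motifs on both strands of these 250 bases, and no 2 matches shared a base in the sequences shown. The E-box CACGTG, the site of Bmal1 and Clock, was found in 0 of the 8 members and in 6.02% of 32817 RefSeq promoter windows. The CArG box, the site of serum response factor, lay 47 to 38 bases before the start of Actc1 and 61 to 52 bases before that of Myl7, so 2 of 8 members held it against 1.47% of all windows. The M-CAT motif CATTCC, bound by TEAD factors, was in Myh6, Myl7 and Tnnt2, 3 of 8 members against 12.6%. Members were counted by their first window, and another RefSeq window of Tnnt2, chr1:135836739-135836988, held 0 matches to any motif. GATAAG, bound by factors of the GATA family, was in Myl7 alone of the 8 (6.55% of windows). GGTGTG, the core of T-box sites, was in Tnni3 and Nppa (16.3%), and TATAAA was in Nppa (12.4%). The MEF2 site was in 0 of 8 (2.92%). A match describes these letters only and is no evidence of binding.

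Total counts per library ran from 11638594 to 25801237 in RiboZero, from 29924325 to 41548830 in PolyA and from 74979802 to 115059756 in NoSelect. NoSelect libraries held 22009262 to 37100656 counts outside the Lars2 and Gm42418 rows. Levels are given as normalised CPM, counts relative to library size after TMM scaling over all 32 libraries. The targeted gene Arntl stood at 30.87 ± 2.90 in WT and 17.45 ± 1.31 in KO in RiboZero (SD, n = 6 each), at 21.94 ± 1.82 and 18.59 ± 1.48 in PolyA (SD, n = 6 each) and at 28.70 ± 0.853 and 17.82 ± 0.96 in NoSelect (SD, n = 4 each). WT and KO did not overlap in RiboZero or NoSelect and overlapped in PolyA, and gene-level counts do not show whether the deleted part was transcribed. The NoSelect library of KO 6 carries a liver tissue label under a lung title. It held 218087 counts of the lung gene Sftpc and 16 of the liver gene Alb, and it was used as lung. KO 6 also had little Xist for a mouse labelled female, at 0.0812 normalised CPM in RiboZero against 850 to 1124 in the other 11 mice.

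Mouse KO 3 stood apart from the other 11 mice before any comparison of genotypes, and it did so in all 3 preparations. Myh6, the alpha myosin heavy chain of heart muscle, had 0, 8 and 0 counts in its RiboZero, PolyA and NoSelect libraries. The other mice ranged from 21.98 to 180.1 normalised CPM in RiboZero. Sln, which encodes sarcolipin, had 0 counts in all 3 libraries of KO 3. Counts of 0 allow up to 0.324% of the other mice's median for Myh6 in RiboZero and 0.163% in NoSelect, and up to 9.73%, 1.01% and 7.16% for Sln, taking 3 counts as the limit. These limits cover counting error only, and amplified reads that are not independent molecules would make them wider.

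The remaining members of KO 3 ranged from near 0 to the level of the other mice. Myl7, the atrial regulatory light chain of myosin, was at 2.16%, 1.05% and 1.69% of the other mice's median in RiboZero, PolyA and NoSelect. Myl4, the atrial essential light chain, was at 13.8%, 9.76% and 12.4%. Tnnt2, cardiac troponin T, which anchors troponin to tropomyosin, was at 11.0%, 12.8% and 11.5%. Tnni3, the inhibitory cardiac troponin I, was at 24.8%, 33.8% and 36%, and Actc1, cardiac alpha actin, at 55.1%, 76.0% and 55.6%. All of these were the lowest of all mice in each preparation. Ryr2, the calcium release channel of the sarcoplasmic reticulum, was at 61.6%, 69.3% and 77.0% and was not the lowest. Tbx5, a T-box transcription factor of the atria and the lung mesenchyme, was at 120.3%, 102.7% and 110.8%. Nppa, the precursor of atrial natriuretic peptide, had 0, 1 and 0 counts. Its limits of 72.3% of the median in RiboZero and 77.2% in NoSelect leave the depth too small for a statement there. In PolyA it was at 3.29% of the median, where 3 counts are 9.88%.

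**Figure D1:**
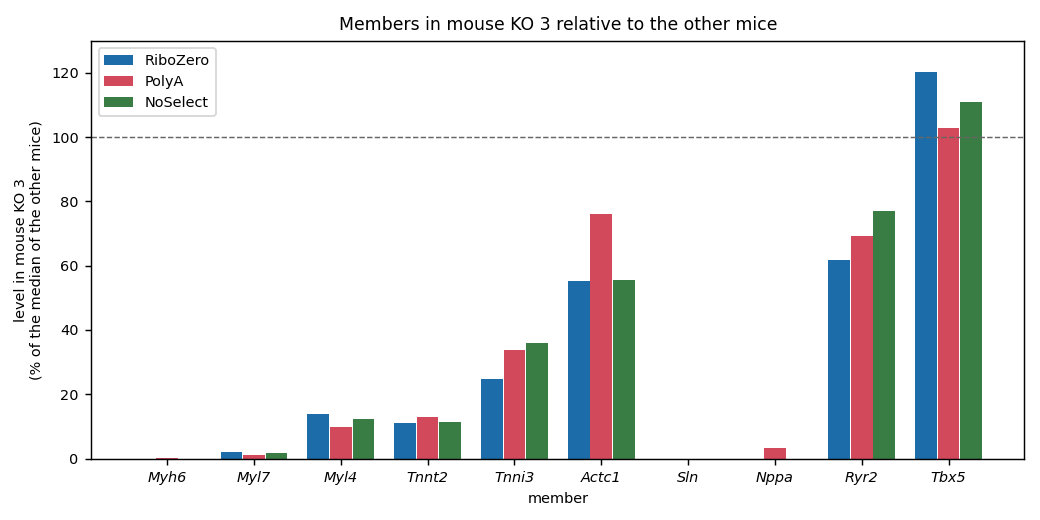
Level of each member in mouse KO 3 as a percentage of the median of the other mice (y axis, %), for RiboZero, PolyA and NoSelect (bars). Myh6, Myl7 and Sln stand at or near 0, Actc1 between 55.1% and 76.0%, and Tbx5 above the dashed line, which marks the median of the other mice.

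Most of the genes lowest in KO 3 were heart muscle genes, members and others. Of 14103 rows with a median of at least 1 normalised CPM in the other mice, 18 were under 10% of that median in both RiboZero and PolyA. They held 3 members and 10 genes of the other heart muscle lists, among them Mb (myoglobin), Mybpc3 (myosin binding protein C), Csrp3 (a Z-disc protein), Casq2 (the calcium store protein of the sarcoplasmic reticulum), Ckm (muscle creatine kinase) and Tbx20 (a cardiac T-box factor). The same count in every other mouse was 1 to 30 rows, with 0 members and 0 list genes. The 18 rows of KO 3 also held Nr1d1, which was under 10% in each of the other KO mice too. Ighv4-1 was among them as well, and it was also under 10% in KO 4, KO 6 and WT 5. List medians were taken over genes with a median of at least 1 normalised CPM in the other mice. For other sarcomere genes (16, 17 and 16 genes) the median in KO 3 was 21.4%, 14.5% and 20.1% of the other mice in RiboZero, PolyA and NoSelect, and for heart muscle metabolism genes (8, 9 and 6) it was 20.5%, 28.3% and 18.9%. The medians of calcium handling and excitation genes (11, 11 and 9) were nearer the other mice, at 80.0%, 69.3% and 80.7%. So were those of atrial and pulmonary vein identity genes (3, 4 and 3), at 94.6%, 60.5% and 107.4%. Both lists were split. In RiboZero 4 of the 11 calcium handling genes were under 50%, namely Casq2 and Kcnj3 (0.0%), Hrc (11.2%) and Pln (11.3%). Atp2a2 was at 79.8% and Cacna1c at 100.2%. KO 3 was the lowest mouse for 10 of all 16 calcium handling genes in each preparation. Of the atrial list, Tbx20 was at 0.0% in RiboZero, Nr2f2 at 94.6% and Dkk3 at 114.8%. Smooth muscle markers were at 94.8%, 98.8% and 93.2%, and lung markers at 92.5%, 97.0% and 93.2%. KO 3 was singled out after its values were seen. In bulk tissue, fewer cells of a type and less RNA per cell cannot be told apart.

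The thick filament genes differed between mice. In RiboZero, Myh6 had a lowest, median and highest level of 21.98, 66.32 and 180.1 normalised CPM in WT and of 0.0, 64.39 and 117.2 in KO. In NoSelect the WT mice 3 to 6 stood at 26.15, 40.52, 79.69 and 75.66, and the KO mice at 0.0, 58.98, 73.49 and 88.36. WT 2 was the highest in RiboZero and PolyA, WT 3 the lowest after KO 3, and the genotypes overlapped. Myl7 ran in RiboZero over 4.589, 12.57 and 28.79 in WT and over 0.2846, 11.85 and 25.79 in KO. Myl4 ran over 5.933, 11.66 and 28.19 in WT and over 1.992, 15.46 and 29.90 in KO.

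The thin filament genes also differed between mice. Tnnt2 ran in RiboZero over 7.724, 13.90 and 35.17 in WT and over 1.779, 17.71 and 29.10 in KO. Tnni3 ran over 4.552, 7.002 and 17.05 in WT and over 2.135, 9.254 and 17.46 in KO. Actc1 ran over 35.62, 45.19 and 97.70 in WT and over 25.19, 42.78 and 50.23 in KO. For each of them WT and KO overlapped and KO 3 was the lowest. WT 2 was the highest mouse for Tnnt2 and Actc1 and KO 1 for Tnni3.

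The calcium handling members differed from each other. Ryr2 ran in RiboZero over 19.66, 25.18 and 50.91 in WT and over 23.41, 38.75 and 48.92 in KO. In NoSelect it stood at 20.70, 23.39, 32.05 and 24.50 in WT mice 3 to 6 and at 24.67, 44.66, 38.96 and 42.71 in the KO mice. All NoSelect KO mice but KO 3 lay above all NoSelect WT mice. Sln ran in RiboZero over 0.8209, 1.813 and 4.599 in WT and over 0.0, 2.166 and 5.908 in KO. Nppa was near the limit of detection, with RiboZero levels of 0.0 to 1.467 in WT and 0.0 to 1.151 in KO. Tbx5 was the steadiest, from 27.05 to 33.31 in WT and from 25.49 to 38.85 in KO.

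**Figure D2:**
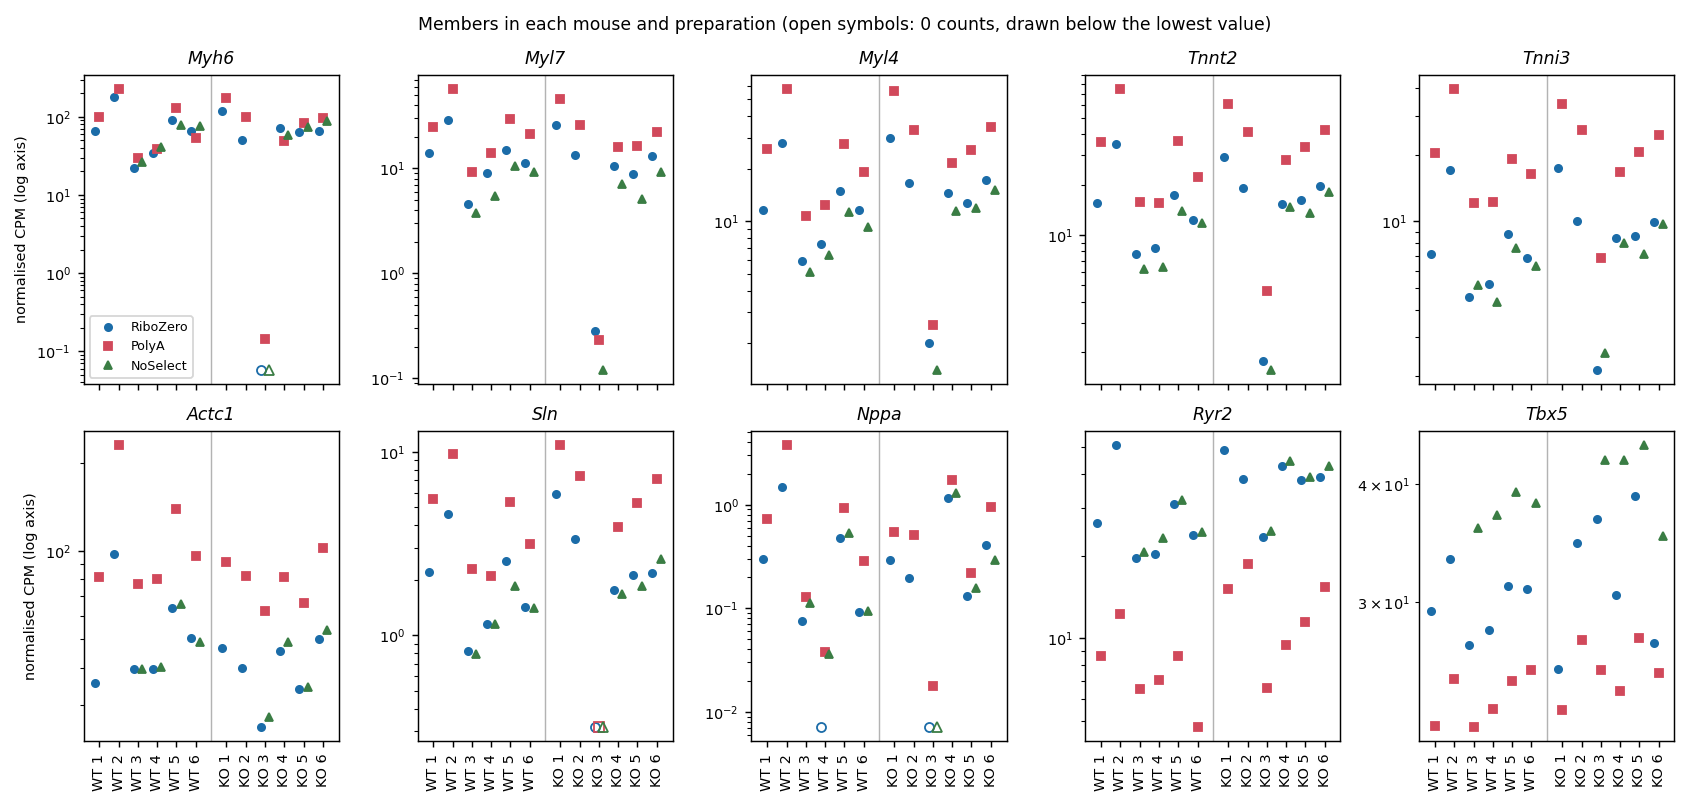
Normalised CPM of each member (y axes, log scale) in every mouse (x axes, WT left of the line and KO right of it), with 1 symbol per preparation and open symbols for libraries with 0 counts. KO 3 is the lowest mouse for Myh6, Myl7, Myl4, Tnnt2, Tnni3 and Sln, and lies within the other mice for Tbx5.

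Per kilobase of the longest coding transcript, the mean RiboZero level over both genotypes followed the order Actc1 (32.2 normalised CPM per kb), Myl7 (21.8), Myl4 (15.3), Tnnt2 (13.7), Myh6 (11.3), Tnni3 (9.69), Tbx5 (7.90), Ryr2 (2.00), Sln (1.78) and Nppa (0.44). From Myl7 to Tnni3 the levels of neighbours lie within the spread between mice, which is as large as 46.5 around a mean of 69.1 normalised CPM for Myh6 (SD, n = 12). The same holds for Ryr2 and Sln, since the SD of Sln was 1.63 around 2.34. The low level of Ryr2 per kilobase rests on a transcript of 16814 bases. Of the 31-base words of Myh6, 29.1% occur in Myh7, the beta myosin heavy chain next to it, so reads can be assigned to either gene. The Myh6 gene lies at chr14:54941921-54966927 in GENCODE M21 (GRCm38) and overlaps the antisense gene Gm49130 and Mir208a. Tnni3 shares its span with Dnaaf3, Nppa with the antisense gene Gm13054 and Actc1 with the noncoding A530058N18Rik, and whether the authors' counting used strand is not given in the sources used here.

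Myl7, Myl4, Tnnt2, Tnni3 and Sln varied together with Myh6 between mice in both RiboZero and PolyA, Actc1 and Ryr2 passed in RiboZero alone, and Nppa and Tbx5 in neither. The standard deviation of Myh6 within genotypes was 2.21 on the log2 scale in RiboZero, where the median row had 0.13, and it was 1.05 among WT mice alone. Across the 12 RiboZero libraries the correlation with Myh6 was r = 0.974 for Myl7 (Spearman's rho 0.86, adjusted permutation p = 9e-05), 0.944 for Tnnt2 (rho 0.727, adjusted p = 0.0001), 0.915 for Myl4 (rho 0.748, adjusted p = 0.0001), 0.89 for Sln (rho 0.769, adjusted p = 0.000144) and 0.872 for Tnni3 (rho 0.713, adjusted p = 0.0001). Actc1 (r = 0.706, rho 0.727) and Ryr2 (r = 0.538, rho 0.755) passed at an adjusted permutation p of 0.04935, whereas Nppa (r = 0.554, rho 0.841, adjusted p = 0.0964) and Tbx5 (r = -0.334, rho -0.14, adjusted p = 0.3348) did not. Without KO 6 the calls of Actc1 (r = 0.704, adjusted p = 0.06897) and Ryr2 (r = 0.534, adjusted p = 0.07569) were lost. In PolyA 5 of 9 members passed, with r between 0.88 and 0.99, and Actc1 (r = 0.563, adjusted permutation p = 0.0964) and Ryr2 (r = 0.503, adjusted p = 0.0964) did not. Values were log2(normalised CPM + 0.5), the family held 18 relations adjusted by Benjamini-Hochberg, and 1e-05 is the smallest p the 100000 resamples can give. The test was run on the members alone, so the counts of passing members here and below have no share of all rows beside them. After centring on genotype, 12 of 13727 rows outside the members had r over 0.9 with Myh6 in both preparations.

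Because KO 3 stands apart, the relation was taken again without it, as an alternative chosen after the data were seen. Then 8 of 9 members passed in both RiboZero and PolyA, with r = 0.918 for Myl7, 0.907 for Myl4, 0.70 for Actc1 and 0.789 for Ryr2 in RiboZero, and Tbx5 at 0.197. Without the 2 libraries farthest from the median of Myh6, KO 3 and WT 3, 8 of 9 passed in RiboZero and 5 in PolyA, and r for Myl7 was 0.859 and 0.929. Among the 6 WT mice r was 0.978 for Myl7, 0.968 for Tnnt2 and 0.973 for Tbx5 in RiboZero, and Tbx5 had 0.472 in PolyA. Among the 6 KO mice Tbx5 had -0.496 and -0.048, and a difference between the genotypes was not tested.

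**Figure D3:**
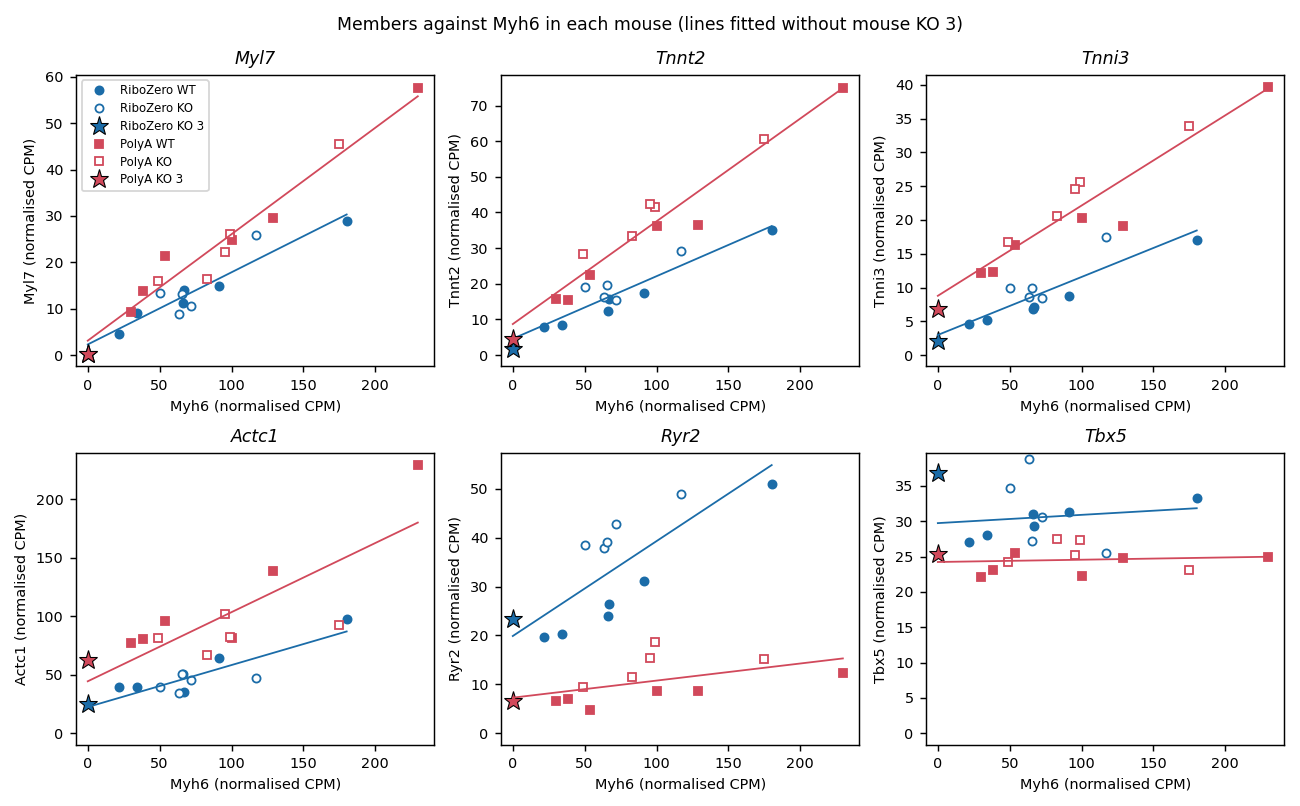
Levels of 6 members (y axes, normalised CPM) against Myh6 (x axes, normalised CPM) in the 12 RiboZero and 12 PolyA libraries, 1 point per mouse, with lines fitted without KO 3 (stars). Myl7 and Tnnt2 run towards low values at a Myh6 of 0, Actc1 and Ryr2 do not, and Tbx5 is nearly flat.

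Lines of each member on Myh6 were fitted to the other 11 mice and extended to a Myh6 level of 0. In RiboZero this lies below their lowest Myh6 of 21.98, so the values are extrapolated. At a Myh6 level of 0 the RiboZero line gave 22.46 ± 6.31 (SE) normalised CPM for Actc1, and KO 3 measured 25.19. For Ryr2 the line gave 19.89 ± 4.73 and KO 3 measured 23.41. For Tnni3 they were 2.972 ± 1.36 and 2.135, and for Tbx5 29.74 ± 2.56 and 36.79. For Myl7 the line gave 2.277 ± 1.77 and KO 3 measured 0.2846. For Myl4 they were 4.013 ± 2.45 and 1.992, for Tnnt2 4.571 ± 2.09 and 1.779, and for Sln 0.4805 ± 0.641 and 0.0. In RiboZero KO 3 thus lay above the line for Actc1 and Ryr2 and below it for Tnni3, Myl7, Myl4, Tnnt2 and Sln. The gap exceeded the SE of the line's value for Myl7 and Tnnt2 alone of these. For Tbx5 in RiboZero KO 3 lay above the line but within the 25.49 to 38.85 of the other mice. In NoSelect KO 3 was below the line for Actc1 (27.15 against 31.18), Myl7 (0.120 against 1.494) and Sln (0.0 against 0.187). There it was level with the line for Myl4 (1.399 against 1.401) and above it for Tnnt2 (1.559 against 1.28). These lines are descriptions without a test.

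Beyond the members, the 10 rows most like Myh6 were Mb, Mybpc3, Ttn, Csrp3, Casq2, Tnnc1, Myoz2, Nrap, Mybphl and Ckm, by the smaller of their correlations in the 12 RiboZero and 12 PolyA libraries after centring on genotype, among 13727 rows. Mb had r = 0.967 and 0.993, Mybpc3 0.987 and 0.959, and Ttn, the giant spring protein titin, 0.95 and 0.959. Of the 10, 8 were in the lists of heart muscle genes. The libraries share KO 3 and their tissue, so these values carry no p.

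A mouse with high levels in 1 preparation had high levels in the others. Between 2 preparations of the same mice, r lay between 0.767 and 0.995 for every member and pair except Tbx5 in PolyA against NoSelect (0.601). Ranks of mice by Myh6 had a rho of 0.832 between RiboZero and PolyA over 12 mice, and over 8 mice of 0.762 between RiboZero and NoSelect and 0.952 between PolyA and NoSelect.

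The knockout comparison asked whether loss of Bmal1 changed these genes, and no member passed the test in any preparation. In RiboZero 0 of 9 tested members were called (edgeR's quasi-likelihood test, Benjamini-Hochberg adjusted p under 0.05), where 3.46% of all rows were. In PolyA 0 of 10 were called (all rows 4.03%) and in NoSelect 0 of 9 (all rows 2.17%). At an unadjusted p under 0.05 the members numbered 0, 2 (Actc1 and Ryr2) and 1 (Ryr2), where all rows gave 16.4%, 18.0% and 15.7%. DESeq2 called 0, 0 and 1 members (Ryr2, adjusted p = 0.0455), where it called 5.84%, 7.87% and 5.13% of all rows. Nppa was not tested in RiboZero and NoSelect because its counts were too low. WT and KO overlapped for every member in every preparation, while 2.89%, 3.32% and 9.48% of tested rows did not overlap.

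None of the log2 changes (KO minus WT) of the sarcomere members passed. Myh6 stood at -0.31 (SE 0.67), -0.24 (SE 0.814) and -0.01 (SE 0.929) in RiboZero, PolyA and NoSelect, with edgeR adjusted p of 0.877, 0.916 and 0.998. Actc1 had -0.43 (SE 0.245), -0.57 (SE 0.26) and -0.25 (SE 0.238), with a PolyA edgeR adjusted p of 0.273. Myl4 stood at 0.24, 0.14 and 0.32, and Tnnt2 at 0.09, 0.03 and 0.33. With errors of this size, changes smaller than the spread between mice were not detectable in these members.

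The mean of Ryr2 was higher in KO in each preparation, and the test did not pass. Its log2 change was 0.42 in RiboZero (SE 0.229, edgeR adjusted p = 0.397), PolyA gave 0.65 (SE 0.256, adjusted p = 0.195) and NoSelect gave 0.58 (SE 0.196, adjusted p = 0.195). Without KO 3 it was 0.53, 0.80 and 0.74, and the NoSelect value passed with an edgeR adjusted p of 0.0466, where 1.75% of all rows were called. RiboZero and PolyA then gave adjusted p of 0.222 and 0.0849 and 0 called members, where 3.82% and 3.31% of rows were called. With KO 6 left out as well, the NoSelect value was 0.74 and did not pass (edgeR adjusted p = 0.0874). Tbx5 stood at 0.10, 0.07 and 0.12 and did not pass.

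**Figure D4:**
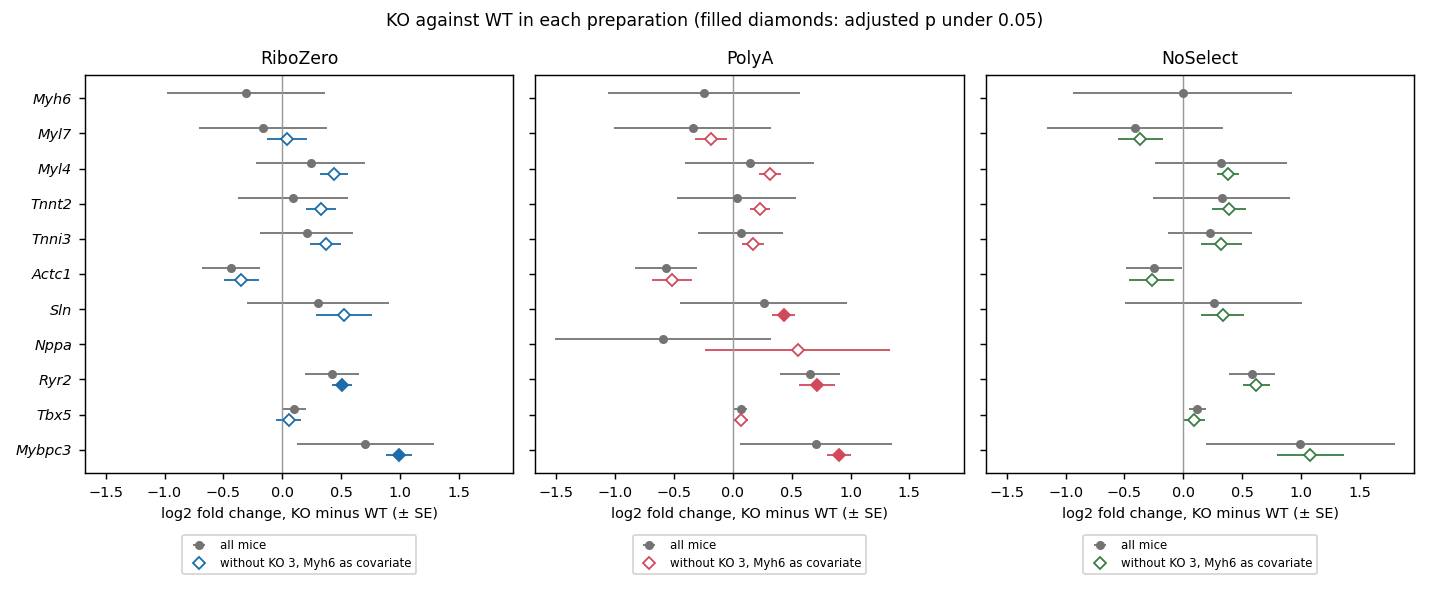
Log2 change of each member and of Mybpc3 (x axes, KO minus WT, with SE bars) in each preparation, with all mice (grey) and at equal Myh6 without KO 3 (diamonds, filled at an adjusted p under 0.05). Filled diamonds are Ryr2 and Mybpc3 in RiboZero and Sln, Ryr2 and Mybpc3 in PolyA, and none is filled in NoSelect.

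Of the other heart muscle lists, those of sarcomere, calcium handling and metabolism genes gave 0 calls. Among the 17 other sarcomere genes, which include Nebl, Tpm1 and Ttn as the most abundant, 0 were called in each preparation, and the same held for the tested genes of calcium handling, led by Atp2a2, Cacna1c and Gja1, and the 9 of metabolism, led by Eno3, Mb and Cox6a2. At an unadjusted p under 0.05, which 16.4%, 18.0% and 15.7% of all rows had in RiboZero, PolyA and NoSelect, the sarcomere list had 0, 1 and 0 of 17 genes. Calcium handling had 3 of 15, 2 of 15 and 2 of 16, and metabolism 1, 0 and 1 of 9. Of the ventricular markers Myh7 fell by 0.68 (log2) in RiboZero (SE 0.117, edgeR adjusted p = 0.00645), and its values were -0.55 and -0.45 in PolyA and NoSelect (adjusted p = 0.0829 and 0.119). Myh7 shares sequence with Myh6, as given above. Myl2, the ventricular regulatory light chain, and Irx4 were at or under 3 counts in every RiboZero and NoSelect library, and Bmp10 and Nppb of the atrial list were so in every library. The ventricular markers Myl3 and Hey2 were detected, at means of 0.965 and 2.65 normalised CPM over all libraries. Myl3 had 0 counts in all 3 libraries of KO 3, and in PolyA the other mice had 0.364 to 3.79 normalised CPM. Skeletal muscle markers summed to 2.11 to 3.22 normalised CPM in RiboZero WT and to 2.15 to 7.12 in KO, and smooth muscle markers to 472.0 to 767.8 and 508.9 to 594.5. Kcnk3, a potassium channel of the list of clock-dependent heart genes, rose in PolyA by 0.43 (SE 0.0829, edgeR adjusted p = 0.0119) and in NoSelect by 0.52 (SE 0.0717, adjusted p = 0.0102). Of the lung markers Sftpa1 fell in all 3 preparations, by 0.49, 0.66 and 0.57, and Ager rose in RiboZero by 0.23. Their part in the values of the members was not tested.

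The knockout effect did not differ detectably between preparations. The interaction of genotype and preparation called 0 of 10 members for each of the 3 pairs, where 0.0% of all rows were called by edgeR. An unadjusted p under 0.05 came up for 0 members, and for 412 of 18372, 244 of 17502 and 331 of 18164 rows. These are PolyA against NoSelect, RiboZero against NoSelect and PolyA against RiboZero, in that order. Spread between mice entered the error, since this fit had no mouse term, and 0 calls do not show equal effects. With the mouse as a block 0 members were called as well. DESeq2 also called 0 members.

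Since most members varied together between mice, KO and WT were also compared at an equal level of Myh6, without KO 3. This fit was chosen after the data were seen. On the log2 scale Ryr2 in RiboZero was 0.51 higher in KO (SE 0.0811, edgeR adjusted p = 0.0087), the 1 called of 8 members where 3.16% of rows were called. In PolyA Ryr2 was 0.72 higher (SE 0.153, adjusted p = 0.0361) and Sln 0.43 (SE 0.0985, adjusted p = 0.0455), 2 of 9 members where 2.73% were called. In NoSelect Ryr2 was 0.62 higher (SE 0.116, adjusted p = 0.0764) and 0 of 8 members were called, where 0.857% were. With Myl7 in place of Myh6, Ryr2 gave 0.52, 0.78 and 0.74 (edgeR adjusted p = 0.0344, 0.0327 and 0.0277) and Myl4 gave 0.42, 0.48 and 0.70 (adjusted p = 0.036, 0.0115 and 0.0506), where 3.03%, 3.11% and 0.995% of rows were called. The Ryr2 call in RiboZero held when each of the 11 mice was left out in turn, and that in PolyA in 3 of 11. With KO 3 kept, Ryr2 at equal Myh6 gave 0.58, 0.79 and 0.70 (edgeR adjusted p = 0.0654, 0.0238 and 0.0271), so RiboZero lost its call and NoSelect gained one. The Sln call in PolyA held in 1 of the 11 fits with a mouse left out, without WT 3, and was lost with KO 3 kept (0.31, adjusted p = 0.456) and with Myl7 in place of Myh6 (0.58, adjusted p = 0.0546).

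Mybpc3, the cardiac myosin binding protein C and no member, is named after its values were seen, because it was called at equal Myh6 in both RiboZero and PolyA. It was 0.99 higher in KO in RiboZero (SE 0.108, edgeR adjusted p = 0.000808). PolyA gave 0.90 (SE 0.101, adjusted p = 0.00154) and NoSelect gave 1.08 (SE 0.281, adjusted p = 0.146). Without the covariate it was 0.95, 0.97 and 1.4 with adjusted p of 0.186, 0.321 and 0.139. The call held in RiboZero and PolyA when each mouse was left out in turn, with values from 0.942 to 1.072 and from 0.849 to 0.934.

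Ratios of members within a library were also compared. Without KO 3, the geometric mean of Myl4 over Myl7 was 0.985 in WT and 1.30 in KO in RiboZero, 0.984 and 1.39 in PolyA, and 1.14 and 1.82 in NoSelect. In PolyA the groups did not overlap, at 0.887 to 1.16 against 1.23 to 1.57, nor in NoSelect, at 0.997 to 1.35 against 1.61 to 2.32, and in RiboZero they did. Sln over Myl7 was 0.153 and 0.208 in RiboZero, 0.183 and 0.28 in PolyA and 0.186 and 0.288 in NoSelect, where alone the groups did not overlap. These were 2 of 5 ratios in 3 preparations, chosen after values were seen, and the smallest adjusted p of the 15 exact permutation tests was 0.0649, so none passed. In NoSelect no p below 0.0571 was possible with 4 against 3 mice.

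The measured level of several members depended on the preparation, with short sarcomere transcripts higher and Ryr2 lower in PolyA. In PolyA against NoSelect, over mice 3 to 6 of both genotypes, 5 of 10 members passed with an absolute log2 change of at least 1, where 24.6% of rows did. Tnni3 (1.35, SE 0.26), Myl7 (1.34, SE 0.587), Tnnt2 (1.21, SE 0.422) and Myl4 (1.11, SE 0.441) were higher in PolyA, where 8.4% of rows were called higher, and Ryr2 fell by 1.85 (SE 0.174, edgeR adjusted p = 4.15e-08), where 16.2% were called lower. The Myl7 call (edgeR adjusted p = 0.0473) was lost by DESeq2 (0.0661), with median-of-ratios factors (0.0511) and without each mouse but KO 3 (0.0686 to 0.0987). The Myl4 call (adjusted p = 0.031) was lost without each mouse but KO 3 and WT 3 (0.0519 to 0.0627). These fits had no mouse term, so spread between mice entered their error. Sln (1.36, adjusted p = 0.067) and Actc1 (0.98, under the fold limit) were not called. In PolyA against RiboZero, over 12 mice, 5 of 10 were called, where 23.6% of rows were. Tnni3 (1.21), Sln (1.14), Actc1 (1.06) and Tnnt2 (1.05) were higher in PolyA, where 7.0% of rows were called higher, and Ryr2 fell by 1.72 (SE 0.18, edgeR adjusted p = 3.48e-09), where 16.6% were called lower. The Sln call (edgeR adjusted p = 0.0364) was lost by DESeq2 (0.0603), with mice 3 to 6 alone (0.0758) and without any 1 of KO 2, KO 4, KO 5, KO 6, WT 1, WT 5 and WT 6 (0.0507 to 0.0651). RiboZero against NoSelect called 0 of 10 members, where 4.43% of rows were called (1.56% higher and 2.87% lower in RiboZero). DESeq2 also called 0 members. An unadjusted p under 0.05 came up for 1 of 10 members, Tbx5 (-0.33), and for 8776 of 18379 rows. With each mouse left out in turn, Tbx5 had an edgeR adjusted p of 0.000158 to 0.00504, and its change stayed under the fold limit.

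**Figure D5:**
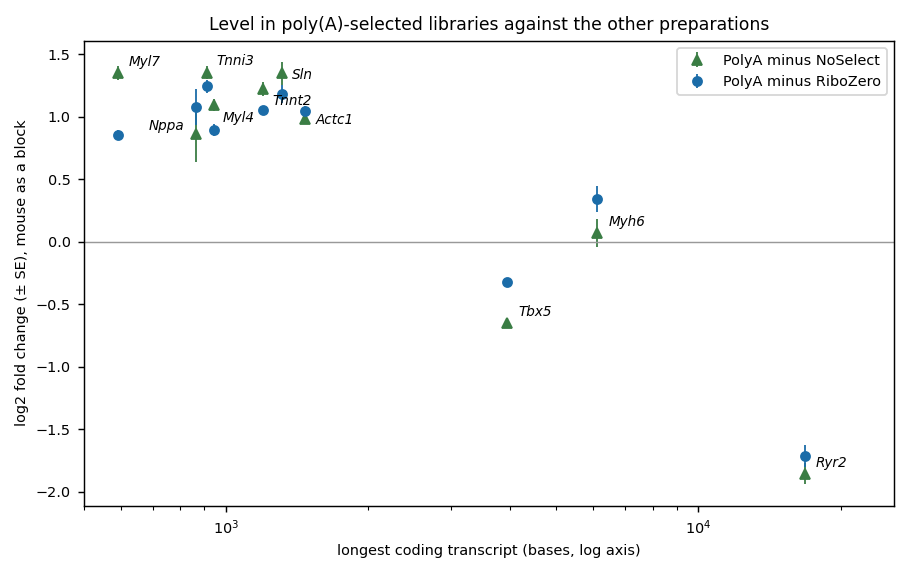
Log2 change of each member with the mouse as a block (y axis, with SE bars) in PolyA against NoSelect and in PolyA against RiboZero, over the length of its longest coding transcript (x axis, bases, log scale). Ryr2, at 16814 bases, is the lowest, and Tnni3, at 912 bases, is among the highest.

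The members with a change above 1 have transcripts of 590 to 1473 bases, whereas Ryr2 has 16814, Myh6 6113 (0.12 and 0.38) and Tbx5 3942 (-0.66 and -0.33). Ttn, which encodes a far longer protein and is no member, fell by 4.37 in PolyA against NoSelect and fell by 4.36 in PolyA against RiboZero. With 10 members this order is a description without a test. With the mouse as a block, PolyA against NoSelect called 6 members, where 25.1% of rows were called, adding Sln (1.35). Sln had an edgeR adjusted p of 6.65e-08 there, Myl7 (1.35, SE 0.0565) one of 2.32e-10 and Myl4 (1.09, SE 0.047) one of 2.93e-10. PolyA against RiboZero also called 6, where 23.9% were called, adding Nppa (1.08), and Sln (1.18) had an edgeR adjusted p of 2.63e-10. RiboZero against NoSelect called 0 members with the block, where 4.71% of rows were called. Its adjusted p alone passed for Myl7 (0.52), Myl4 (0.27), Tnnt2 (0.20), Ryr2 (-0.08) and Tbx5 (-0.34), all under the fold limit.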

How the data were processed

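The values are estimated counts, 1 per gene and library, as deposited by the authors. Salmon 1.4.0, UMI-tools 1.1.1 and GRCm38 are named per the submitters' processing notes, while their order, the annotation and filters are not given in the sources used here. RiboZero and PolyA libraries used 200 ng of RNA and NoSelect libraries 15 ng, with 11 PCR cycles and stranded kits, per the labels' protocols, and the NoSelect material of an animal combined 6 preparations. Each column name equals a library title. Of the deposited values 12.81% were not whole, and they were rounded to whole numbers.

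KO and WT were tested within each preparation with edgeR 4.0.16 in R 4.3.3 (TMM, filterByExpr, glmQLFit, glmQLFTest), with genotype alone in the model and Benjamini-Hochberg adjustment over all rows. Preparations were compared over matched mice with genotype as a covariate and without a mouse term, and the mouse was a block in an alternative fit. Preparation calls also required an absolute log2 change of at least 1. Correlations used two-sided permutation tests with 100000 resamples in numpy 2.4.6, with ranks from scipy 1.17.1. Libraries of 1 mouse are paired by the animal numbers of the labels, and they deviated together over 9594 rows (r from 0.393 to 0.714). Fits were tested on simulated counts.

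The members and the lists were chosen with earlier results of these data known. Named genes were all members, list genes called in a KO comparison, the 3 most abundant of each list, and the 10 rows most like Myh6. Alternatives were DESeq2 1.42.0, median-of-ratios factors, no filter, blocks, other sets of mice and each mouse left out. Chosen after the data were seen were the fits without KO 3 and KO 6, those at equal Myh6 or Myl7, the ratios, and correlations by genotype or without KO 3. Mice are separate animals per the labels. Gene positions came from GENCODE M21.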

Additional observations from a re-analysis of the deposited data

Results flagged for a closer look

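In groups of 4 or 6 mice, 60 groups of member levels were screened for a mouse far from the rest, and 15 were marked, where chance marks about 1 in 20 groups. The groups hold the same mice in different members and preparations, so their marks are not independent. KO 3 accounted for 14 of the 15 marks. It was the lowest KO mouse for Myh6 at 0.0, 0.143 and 0.0 normalised CPM in RiboZero, PolyA and NoSelect, with the other KO mice at 50.5 or more in RiboZero. Myl7 stood at 0.285 in RiboZero and 0.233 in PolyA. Myl4 stood at 1.99, 2.54 and 1.4 in the 3 preparations, and Tnnt2 at 1.78, 4.62 and 1.56. Tnni3 was at 2.13 in RiboZero, Sln at 0.0 in PolyA and Ryr2 at 23.4 in RiboZero, where the other KO mice had 38.0 to 48.9. The remaining mark was Tbx5 in the NoSelect library of KO 6, at 35.3 against 42.4 to 44 in the other KO mice, and this is the library with the liver label.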

How the results depend on the processing

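Of the member values compared between genotypes, 449 kept their direction and side of the threshold and 36 changed sign, none of them called. The count of called members in NoSelect was 1 by DESeq2 and 0 to 1 when single mice were left out, with the 1 coming without KO 3. In PolyA against NoSelect the count ran from 3, without any 1 of KO 5, KO 6, WT 4, WT 5 and WT 6, to 6 without KO 3. In PolyA the count of members correlated with Myh6 was 8 by Spearman's rho and 8 without KO 3. Rows called by DESeq2 were 976, 1355 and 878, against 579, 694 and 372 by edgeR in RiboZero, PolyA and NoSelect. With all 32 libraries in 1 fit they were 891 in RiboZero and 1564 in PolyA, with mice 3 to 6 alone 255 in RiboZero, and without WT 2 1066 in PolyA. The cause was not tested for these changes.

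WT and KO mice share only their numbers, so a replicate block pairs unrelated animals (r from -0.1 to 0.259). It gave 372 called rows in RiboZero and 103 in NoSelect, called 0 members, and turned Tnnt2 in PolyA to -0.0273, Sln in PolyA to -0.0212 and Sln in NoSelect to -0.11. Without KO 3 and KO 6 Myl7 in RiboZero turned to 0.0964, Myh6 in PolyA to 0.0526 and Myh6 in NoSelect to 0.258. Nppa in PolyA was 1.01 with mice 3 to 6 alone. RiboZero against NoSelect over all libraries gave 0.311 for Myh6, 0.0665 for Actc1, 0.347 for Nppa and 0.108 for Ryr2. The correlation of Tbx5 with Myh6 was 0.197 without KO 3 and 0.973 in WT mice in RiboZero. In PolyA it was 0.078 centred on genotype, 0.022 without the 2 farthest libraries, 0.254 without KO 3 and 0.472 in WT mice. Tnnc1 in NoSelect at equal Myh6 was 0.193 with Myl7 as the covariate, 0.204 with none and 0.015 with KO 3 kept.

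With single mice left out, the RiboZero values ran from -0.599 to 0.139 for Myh6, -0.542 to 0.188 for Myl7, -0.057 to 0.606 for Myl4, -0.133 to 0.482 for Tnnt2, -0.0658 to 0.549 for Tnni3 and -0.139 to 0.681 for Sln, the lowest without KO 1 and the highest without WT 2. The PolyA values ran from -0.599 to 0.23 for Myh6, -0.726 to 0.0642 for Myl7, -0.158 to 0.564 for Myl4, -0.195 to 0.448 for Tnnt2, -0.113 to 0.39 for Tnni3, -1.15 to 0.598 for Nppa and -0.0217 to 0.613 for Sln. In NoSelect they ran from -0.325 to 0.406 for Myh6 and -0.133 to 0.657 for Sln, in PolyA against NoSelect from -0.0217 to 0.222 for Myh6, and for Tnnc1 at equal Myh6 in NoSelect from -0.178 to 0.07. Nppa had too few counts for a change to be detectable in RiboZero or NoSelect.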

Other observations

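At equal Myh6 without KO 3, 3 of 9 heart muscle metabolism genes were called in PolyA, in both directions, where 2.73% of all rows were called. Mb (myoglobin) was 0.46 ± 0.0869 (SE) and Pgam2 (a muscle phosphoglycerate mutase) 0.62 ± 0.135 (SE) higher in KO on the log2 scale, at edgeR adjusted p = 0.0209 and 0.0393. Cox6a2 (a muscle subunit of cytochrome c oxidase) had a log2 difference of -0.46 ± 0.0963 (SE), at edgeR adjusted p = 0.033. With Myl7 as the covariate only Pgam2 of these 3 stayed called, at adjusted p = 0.0223, against 0.0559 for Mb and 0.0793 for Cox6a2. In RiboZero the values of Mb, Pgam2 and Cox6a2 at equal Myh6 were 0.64, 0.71 and -0.43, and in NoSelect 0.57, 0.35 and -0.70, and none of these passed. The 3 genes were chosen after their values were seen.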
